A study of Solanum tuberosum with 12 samples.

Results

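Red beauty is 1 of 4 potato (Solanum tuberosum) cultivars whose tubers were profiled by small RNA sequencing, and its 3 libraries were compared with the 9 libraries of the 3 other cultivars. The groups were Red beauty, Black kingkong, Longshu No.7 and LK99, with 3 libraries each, all from tubers at an age of 150 days. The 4 cultivars were grown side by side with irrigation, light and temperature kept alike, and the labels name no treatment. The series was designed around anthocyanin, the red to purple plant pigment, but the labels give no pigment value or tuber colour for a library. The labels do not say that the libraries of a cultivar came from separate plants, so each p-value reflects only how far these libraries scatter, and that scatter may be technical. A growing site and year shared by all samples also means that cultivar differences were seen in 1 environment.

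The members of the comparison were the distinct small RNA sequences whose raw counts were higher in each Red beauty library than in all 9 other libraries, or lower in each than in all 9. Among 5730 distinct sequences in the table, 1003 passed the filter on low counts and were tested, and 143 of these (14.3%) met that rule, 70 above (6.98%) and 73 below (7.28%). Each was also tested with edgeR for Red beauty against the average of the 3 other cultivars, each weighted equally, with Benjamini-Hochberg adjustment over all 1003 sequences and a threshold of 0.05. By that test 342 sequences (34.1%) differed, 188 higher (18.7%) and 154 lower (15.4%) in Red beauty. The 2 criteria met in 134 sequences (13.4%), with 70 above (6.98%) and 64 below (6.38%) all other libraries. The separation was read from the same counts as the test and gives it no further support.

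Plant microRNAs (miRNAs) are short RNAs cut from a hairpin precursor, of which either arm can yield a mature strand, and they guide the cleavage or silencing of messenger RNAs with a matching site. Pairing at the seed, bases 2 to 8 from the 5′ end, matters most, although plant miRNAs pair along most of their length. miR156 represses SPL transcription factors and holds plants in the juvenile phase, and miR172 represses AP2-like factors and acts later in the same phase pathway. In potato both have been tied to the control of tuber formation. miR159 targets GAMYB-type transcription factors, miR319 targets TCP factors, and miR482 targets resistance genes of the NLR class.

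The sequences that carry the named differences are given as DNA letters, 5′ to 3′, with the seed in capitals. The miR156 sequences show that the sequence high in Red beauty and 2 that did not pass the test share a run of at least 16 bases at shifted positions, so that their seeds differ, while stu-miR156d-5p is the abundant member of the family and stu-miR156g-3p comes from the other arm.
stu-miR156e: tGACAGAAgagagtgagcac
stu-miR156f-5p: cTGACAGAagagagtgagca
miR156-x: aCTGACAGaagagagtgagc
stu-miR156d-5p: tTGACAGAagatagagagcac
stu-miR156g-3p: gCTTACTCtctatctgtcacc
The miR172 sequences show the 2 arms that were lower together, 3′ arms first.
stu-miR172a-3p: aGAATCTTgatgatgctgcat
stu-miR172d-3p: gGAATCTTgatgatgctgcag
stu-miR172b-5p: gCAGCACCatcaagattcaca
miR172-x: gCAGCACTattaagattctc
The others are the most abundant named sequences above or below the other cultivars, and the predicted sequence with the largest difference.
stu-miR6149-5p: tTGCAACAcacctgaatcgtc
stu-miR7992-5p: tTTGACAAtgcacatctagacact
miR159-y: tTTGGATTgaagggagctcta
stu-miR319b: tTGGACTGaagggagctcct
miR482-y: tCTTTCCTactcctcccatacc
m6021-5p: gTGTGTCTcctgtaccctccct

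Names beginning with stu are potato names, endings x, y and z mark names taken from other species, and a bare m with a number stands for a miRNA predicted by the authors, given here without their prefix. The authors' table pairs no name with a genome position, so no coordinates are given. The 12 libraries held 5.51 to 7.17 counts in units of 1e6, and the Red beauty libraries 5.51 to 6.81. A single sequence, miR166-y, took 93.0% to 93.8% of the Red beauty counts and 88.9% to 93.0% of those of the other cultivars; all other sequences share the remainder. Levels are given as CPM, counts per 1e6 counts after scaling by TMM, a factor that corrects for such composition. The TMM factors of Red beauty were 0.797 to 0.915. Scaling by library size alone moved the median log2 difference of all 1003 sequences from 0.006 to −0.30 and the split of calls from 188 higher and 154 lower to 130 higher and 201 lower.

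Libraries of 1 cultivar were more alike than libraries of different cultivars, for Red beauty as for the others. Across the tested sequences, Pearson's r of log2 CPM was 0.967 to 0.975 between Red beauty libraries, 0.846 to 0.886 with Longshu No.7, 0.789 to 0.827 with LK99 and 0.776 to 0.810 with Black kingkong. Among the other cultivars it was 0.794 to 0.887. Within Black kingkong, Longshu No.7 and LK99 it was 0.977 to 0.983, 0.905 to 0.982 and 0.932 to 0.971. Sequences are not independent replicates, and these values are a description. The number of sequences that differed from Red beauty was 228 (22.7%) for Longshu No.7, 325 (32.4%) for LK99 and 423 (42.2%) for Black kingkong by edgeR. These 3 comparisons share the Red beauty libraries. Setting each cultivar in turn against the other 3 gave 137 sequences called and separated for Black kingkong, 134 for Red beauty, 89 for LK99 and 53 for Longshu No.7. The libraries farthest from their own cultivar were Longshu No.7 replicate 3 and LK99 replicate 3. Without Longshu No.7 replicate 3, the Red beauty sequences called and below rose in number from 64 to 101, while those above numbered 72.

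**Figure D1:**
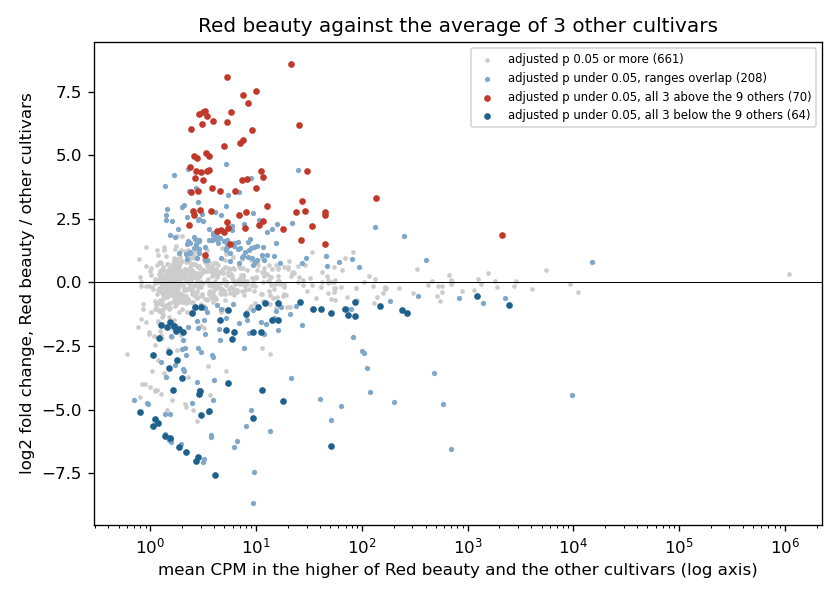
Each point is 1 of the 1003 tested sequences, with the mean CPM in the higher of Red beauty and the other cultivars on a log axis and the log2 difference of Red beauty from the average of the 3 other cultivars on the vertical axis. The 70 sequences above all other libraries (red) lie mostly at low levels, and 2 of them reach 100 CPM, against 5 of the 64 below (dark blue).

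The sizes of the differences describe sequences picked for being separated. A sequence above that is scarce elsewhere passed the filter on low counts only through Red beauty, so a large difference there follows in part from the choice. The median log2 difference was 3.87 among the 70 above, with a range of 1.08 to 8.57, and −1.91 among the 64 below, with sizes of 0.53 to 7.57. Sequences with no count on the lower side do not move these medians when set at their lower bounds. A difference of at least 4-fold was fitted for 64 of the 70 above and 28 of the 64 below. The higher side had a median level of 5.38 CPM in those above and 3.81 CPM in those below, against 3.23 CPM over all tested sequences. Of the 134 sequences, 122 also separated on TMM-scaled CPM, 69 above and 53 below.

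Counted against each cultivar singly, 82 of the 134 passed the test with the same sign in all 3 comparisons, 48 above and 34 below. The other cultivars differed among themselves in 41 of the 134 (30.6%), against 429 of all 1003 (42.8%). The share was 34.3% among those above and 26.6% among those below. The 134 were chosen for lying apart from all other libraries. Of the 70 above, 16 had at most 5 counts in those libraries together, where such a difference could hardly be detected. The shares therefore cannot show whether the members were more alike among the other cultivars. The cultivar nearest to Red beauty in level was Longshu No.7 for 41 of the 70 above, LK99 for 18 and Black kingkong for 11. Some of the 41 rest on a few counts in Longshu No.7 replicate 1 alone. Examples are m0050-3p with 1 count there and m0288-3p with 2, and no count in any other library outside Red beauty. m0448-3p had no count outside Red beauty, so the 3 cultivars tied and its place in this tally is arbitrary. Among the 64 below, it was Longshu No.7 for 26, LK99 for 20 and Black kingkong for 18.

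**Figure D2:**
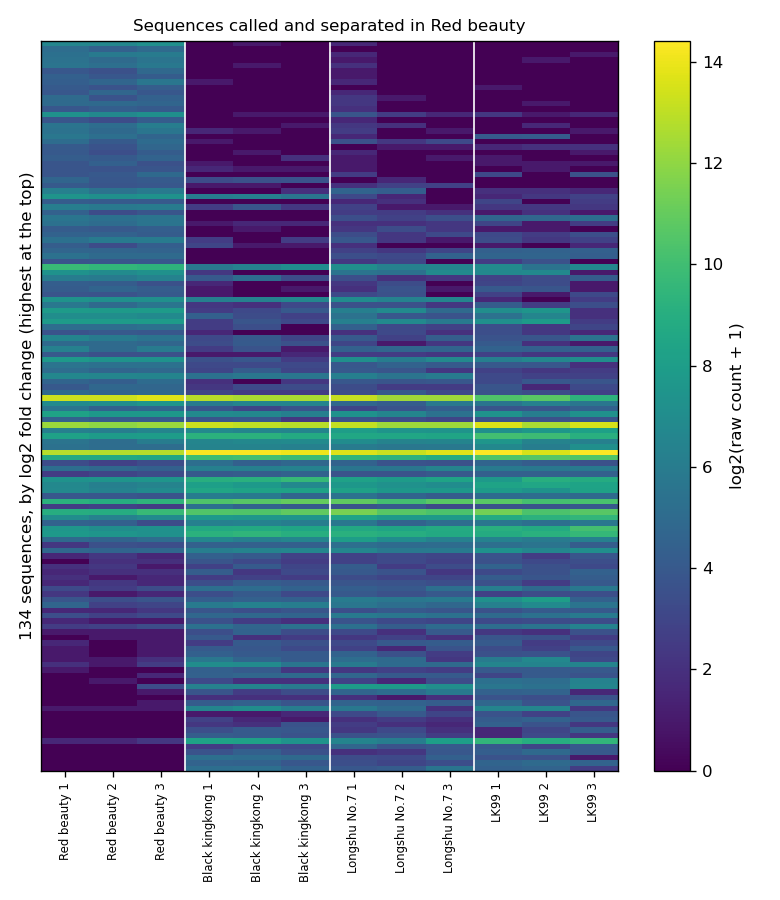
Each row is 1 of the 134 sequences called and separated, ordered by log2 difference with the highest at the top, each column is 1 of the 12 libraries, and colour gives log2(raw count + 1). The 3 Red beauty columns are high in the upper 70 rows and low in the lower 64, and many of the top rows are at or near 0 in the other 9 columns.

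The sequence above with the best known role was stu-miR156e, a mature miR156 that matches SPL messenger RNAs. Its raw counts were 870, 703 and 630 in Red beauty, 52, 78 and 126 in Black kingkong, 140, 79 and 88 in Longshu No.7, and 122, 44 and 100 in LK99. The lowest Red beauty library held 630 counts and the highest of the 9 others 140, and the 3 other cultivars were alike. The level was 137 ± 19.3 CPM in Red beauty (SD, n = 3), against 13.3 ± 6.89, 17.2 ± 2.49 and 11.4 ± 4.11 CPM in Black kingkong, Longshu No.7 and LK99. The log2 difference from their average was 3.31 ± 0.27 (SE, edgeR adjusted p = 1.1e-06).

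The opposite arm, stu-miR156g-3p, was also above all other libraries. It had 53, 30 and 48 counts in Red beauty and 3 to 17 in the 9 others, with a log2 difference of 2.78 ± 0.33 (SE, edgeR adjusted p = 3.1e-05). The arms are paired through an entry that shares the stu-miR156e sequence. The rest of the miR156 family did not follow. The abundant stu-miR156d-5p had 11151, 6782 and 7347 counts in Red beauty and overlapped both Black kingkong and Longshu No.7, at a log2 difference of −0.18 ± 0.22 (edgeR adjusted p = 0.59). The end-shifted stu-miR156f-5p had 48, 37 and 78 counts in Red beauty and 16 to 275 in the others, at 0.04 ± 0.34 on the log2 scale (edgeR adjusted p = 0.97). The second end-shifted form, miR156-x, had 165, 155 and 161 counts in Red beauty, at −0.69 ± 0.33 (edgeR adjusted p = 0.12). In all, 2 of the 7 tested miR156 sequences were higher and 0 were lower, with a family median log2 difference of 0.04. Over all sequences 18.7% were higher and 15.4% lower, so the share for the family as a whole does not stand out. Under scaling by library size 2 were still higher and 1 was lower.

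The miR172 family was lower against the average of the 3 other cultivars. Against each cultivar singly, only stu-miR172b-5p and miR172-x, both of the 5′ arm, passed the test in every comparison. The rest of the family did not pass against Longshu No.7, among them the 3′-arm sequences stu-miR172a-3p, stu-miR172d-3p and miR172-y. Whether the miR172 sequences act on AP2-like messenger RNAs was not tested. All 7 tested sequences with this name passed the test as lower in Red beauty, under TMM and under library size alike, with a median log2 difference of −1.21 against 0.006 over all sequences. Of these, 4 were below all 9 other libraries in raw counts. The most abundant of the 4, stu-miR172b-5p, had 502, 485 and 846 counts in Red beauty, 1443, 1371 and 1864 in Black kingkong, 2820, 1630 and 1276 in Longshu No.7, and 2613, 1289 and 1655 in LK99. All 3 Red beauty counts lay below the lowest of the others, 1276. The level was 114 ± 36.7 CPM in Red beauty (SD, n = 3), against 240 ± 59.9, 314 ± 49.5 and 242 ± 59.7 CPM in Black kingkong, Longshu No.7 and LK99. The log2 difference was −1.21 ± 0.25 (SE, edgeR adjusted p = 0.0019).

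On the other arm, stu-miR172d-3p had 164, 172 and 181 counts in Red beauty and 220 to 806 in the other libraries, at −1.03 ± 0.33 (edgeR adjusted p = 0.027). It did not separate on TMM-scaled CPM. Its difference was carried by Black kingkong, at −1.60, with −0.67 and −0.81 against Longshu No.7 and LK99, neither of which passed the test (edgeR adjusted p = 0.25 and 0.13). The family's most abundant sequence, stu-miR172a-3p, had 1353, 1158 and 1197 counts in Red beauty and overlapped Longshu No.7, whose lowest library held 1330. Its log2 difference of −0.52 ± 0.16 (edgeR adjusted p = 0.025) did not pass without any 1 of the Red beauty libraries, at adjusted p of 0.0953, 0.076 and 0.112. It was −1.02 against Black kingkong, but −0.18 and −0.35 against Longshu No.7 and LK99, neither of which passed (edgeR adjusted p = 0.59 and 0.19). The scarcer miR172-x and miR172-y were below all other libraries at −1.50 and −0.82. The scarcest, stu-miR172d-5p with 1, 1 and 4 counts and stu-miR172e-5p with 1, 0 and 3 in Red beauty, fell but overlapped other libraries. A predicted sequence that shares a run of at least 16 bases with stu-miR172a-3p, m3406-3p, went the other way, at 1.57 ± 0.35 (edgeR adjusted p = 0.0033). It had 31, 36 and 40 counts in Red beauty, 54, 57 and 64 in Black kingkong, 0, 1 and 2 in Longshu No.7, and 44, 41 and 62 in LK99. Red beauty thus lay above Longshu No.7 alone in raw counts.

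**Figure D3:**
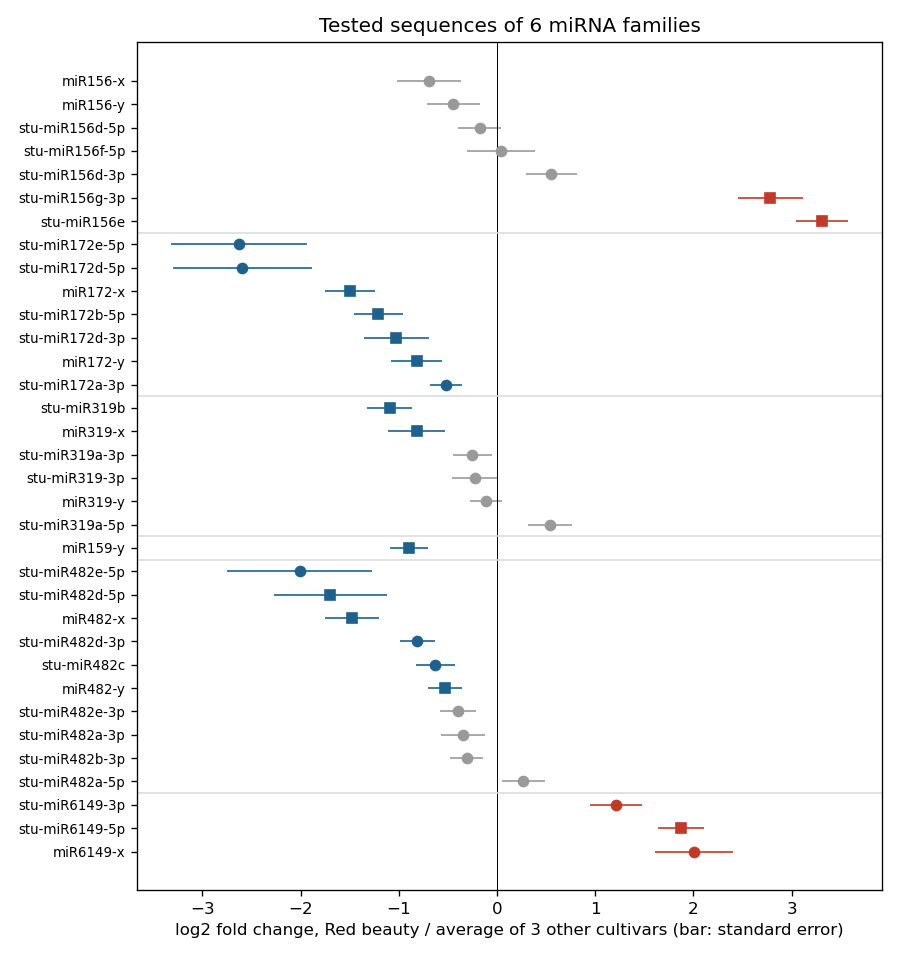
Points give the log2 difference of Red beauty from the average of the 3 other cultivars for each tested sequence of 6 families, with bars of 1 standard error. Red is higher and blue lower at an edgeR adjusted p under 0.05, grey did not pass, and squares mark sequences separated from all 9 other libraries. All 7 miR172 points lie to the left, all 3 miR6149 points to the right, and 2 of the 7 miR156 points stand far to the right.

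Among families that regulate GAMYB and TCP transcription factors, which act in growth and differentiation, 3 of 7 tested sequences were lower and 0 higher. All 3 lay below every other library in raw counts. Over all sequences 15.4% were lower and 6.38% both lower and below every other library. The count of lower sequences was 4 when scaled by library size. miR159-y was the most abundant sequence below the other cultivars. It had 7081, 6769 and 7196 counts in Red beauty, 20718, 19625 and 16939 in Black kingkong, 12945, 9470 and 13224 in Longshu No.7, and 21769, 12116 and 21055 in LK99. The Red beauty libraries were close together and the nearest other library held 9470. The log2 difference was −0.90 ± 0.19 (SE, edgeR adjusted p = 0.003), and it passed against each cultivar singly, at −1.15, −0.67 and −0.87 for Black kingkong, Longshu No.7 and LK99.

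stu-miR319b had 581, 505 and 674 counts in Red beauty and 1084 to 2077 in the others, with a log2 difference of −1.09 ± 0.23 (SE, edgeR adjusted p = 0.0026). miR319-x lay below in raw counts, at −0.82 ± 0.29 (edgeR adjusted p = 0.045), but did not separate on TMM-scaled CPM. The far more abundant stu-miR319a-3p, which has the same seed, did not separate. It had 13700, 13652 and 18787 counts in Red beauty, which lay below Black kingkong and Longshu No.7 and within the range of LK99, 6315 to 14625, or above it. Its log2 difference was −0.25 ± 0.20 (edgeR adjusted p = 0.38), and −0.56 (adjusted p = 0.0254) when scaled by library size.

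Of the 10 tested sequences of the miR482 family, 6 were lower and 0 higher, with a median log2 difference of −0.58. Over all sequences 15.4% were lower and the median was 0.006. Scaled by library size, 8 were lower. The 3 that lay below all other libraries were miR482-y, miR482-x and stu-miR482d-5p. Seeds of the last 2 differ from that of miR482-y, and stu-miR482d-5p is named for the 5′ arm. Whether any single sequence acts on NLR genes was not tested. miR482-y had 4878, 3978 and 4775 counts in Red beauty and 5031 to 12809 in the 9 others. The groups did not overlap, but 2 Longshu No.7 libraries, at 5138 and 5031, came close to Red beauty, and the log2 difference was small, at −0.53 ± 0.17 (SE, edgeR adjusted p = 0.032). It lost its call when any 1 Red beauty library was left out, at adjusted p of 0.12, 0.112 and 0.09. The same held for stu-miR482c, another of the 6, which overlapped other libraries, at adjusted p of 0.102, 0.0533 and 0.133. miR482-x differed more, with 29, 24 and 34 counts in Red beauty, 63 to 260 in the others and a log2 difference of −1.47 ± 0.27 (edgeR adjusted p = 0.0011). stu-miR482d-5p was scarce, at 3, 4 and 1 counts against 5 to 23, with −1.70 ± 0.57 (edgeR adjusted p = 0.035).

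The most abundant sequence above the other cultivars was stu-miR6149-5p, a miRNA named in potato. It had 10241, 10127 and 13371 counts in Red beauty, 7457, 6213 and 6208 in Black kingkong, 9190, 5160 and 5106 in Longshu No.7, and 1403, 1722 and 640 in LK99. The margin to the nearest library, Longshu No.7 replicate 1, was narrow, and LK99 stood far below all. The log2 difference from the average was 1.88 ± 0.23 (SE, edgeR adjusted p = 4.1e-05), made of 1.06 against Black kingkong, 0.96 against Longshu No.7 and 3.61 against LK99. All 3 tested miR6149 sequences were higher than the average of the other cultivars under both scalings, and 1 of them separated from all other libraries. The opposite arm, stu-miR6149-3p, had 40, 46 and 39 counts in Red beauty, 35 to 56 in Black kingkong and Longshu No.7 and 3 to 9 in LK99. Likewise, miR6149-x had 16, 18 and 34 counts in Red beauty, 9 to 24 in Black kingkong and Longshu No.7 and 0 to 4 in LK99.

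stu-miR7992-5p had 313, 208 and 201 counts in Red beauty and 41 to 162 in the others, with a log2 difference of 1.50 ± 0.27 (SE, edgeR adjusted p = 8.6e-04). Its differences from Black kingkong, Longshu No.7 and LK99 were alike, at 1.58, 1.51 and 1.41. The other sequences above that carry a name were miR8044-x at 3.01 ± 0.35, miR10535-x at 2.77 ± 0.55 and miR10540-y at 5.49 ± 0.77 on the log2 scale. miR10540-y had 52, 37 and 24 counts in Red beauty and none in Black kingkong, but 16 and 17 in LK99 replicates 1 and 2. Further named sequences below were stu-miR166d-5p at −1.96 ± 0.33, stu-miR8038a-3p at −1.82 ± 0.47, miR8001-x at −1.08 ± 0.33 and miR10533-x at −0.77 ± 0.23. Of these, stu-miR8038a-3p and miR10533-x did not separate on TMM-scaled CPM. stu-miR166d-5p had 10, 6 and 8 counts in Red beauty and 24 to 60 in the others. The dominant miR166-y had a log2 difference of 0.34 ± 0.13 (edgeR adjusted p = 0.052) and did not separate. That value depended on the processing: it was 0.047 (adjusted p = 0.261) when scaled by library size, 0.54 (adjusted p = 0.00212) with a filter of 10 CPM and 0.35 (adjusted p = 0.0107) with the replicate number as a block.

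**Figure D4:**
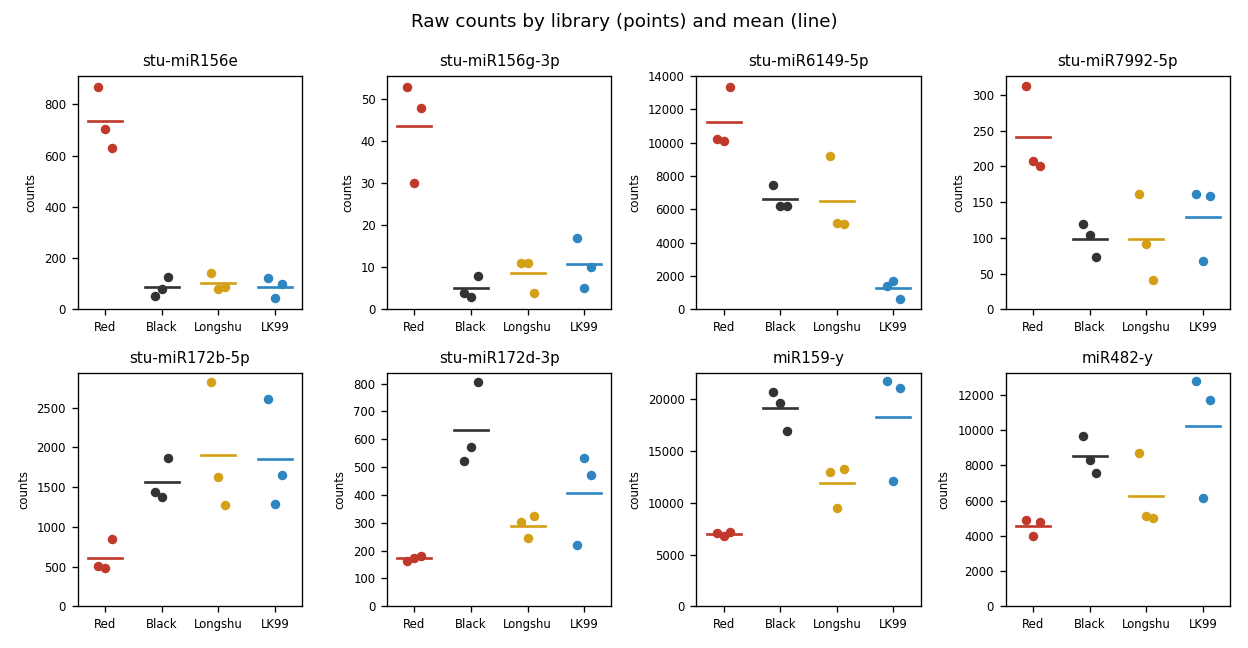
Points are raw counts in each library and lines are the mean of 3 libraries per cultivar, for 4 sequences above (upper row) and 4 below (lower row) all other libraries. The Red beauty points of stu-miR156e lie between 630 and 870 and those of miR482-y lie just under the lowest Longshu No.7 point of 5031.

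The named families that are known to regulate anthocyanin in other plants gave 2 higher and 2 lower of 12 tested sequences, with a median log2 difference of −0.32. These shares are near those over all sequences, 18.7% higher and 15.4% lower. The 2 higher were stu-miR156e and stu-miR156g-3p. The 2 lower were miR858 sequences, which target MYB transcription factors of phenylpropanoid synthesis, and neither separated Red beauty from the others. miR858-x had 6, 4 and 24 counts in Red beauty, 9, 6 and 21 in Longshu No.7, 2669, 2503 and 2925 in Black kingkong, and 1169, 1136 and 2002 in LK99. Red beauty and Longshu No.7 overlapped, at a difference of −0.04 (edgeR adjusted p = 0.99), while the average over 3 cultivars gave −4.71 ± 0.58 (edgeR adjusted p = 3.9e-05). stu-miR530 and stu-miR8006-5p had the same layout, with −3.57 and −2.78 on average and 0.44 and 0.20 against Longshu No.7. The 208 sequences called but not separated, 118 higher and 90 lower, hold such cases.

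The other lists are read against the 18.7% higher, 15.4% lower and 7.28% below all other libraries over all 1003 sequences. Of 20 tested sequences of meristem, leaf polarity and phase change families, 1 was higher and 9 lower, 7 of these being miR172, and 5 lay below all other libraries. Resistance gene families gave 1 higher and 6 lower of 25, all 6 of them miR482, and 5 lay below all other libraries, of which 3 passed the test. Auxin signalling families gave 1 higher and 1 lower of 8, with no sequence separated. Nutrition families gave 1 higher and 2 lower of 10, with no sequence separated. Of the 5 copper sequences 0 passed by edgeR, by DESeq2 or at an unadjusted p under 0.05. Of the 8 sequences in small RNA pathway families, whose known targets are DCL1 and ARGONAUTE messenger RNAs, 0 passed by edgeR or DESeq2. An unadjusted edgeR p under 0.05 was reached by 1, and 4 were lower when scaled by library size. Potato miRNAs of the number range listed in the methods gave 4 higher and 7 lower of 64. Predicted sequences made up most calls, with 168 higher and 121 lower of 773, and 63 of the 70 above (90%) and 50 of the 64 below (78.1%) were predicted, against 77.1% of all tested.

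The largest differences were in predicted sequences of moderate level. m6021-5p had 96, 100 and 148 counts in Red beauty and 3 counts in the 9 others together, 1 in Black kingkong and 2 in Longshu No.7. The ratio of pooled counts per depth was 428, with an exact 95% interval of 145 to 2087 that covers counting error only. On the lower side m1604-5p was the largest at this level, with 2, 2 and 4 counts in Red beauty, 329, 303 and 168 in Black kingkong, 89, 68 and 264 in Longshu No.7, and 705, 503 and 715 in LK99. That is a log2 difference of −6.44 ± 0.67 (SE, edgeR adjusted p = 1.2e-05).

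Among the 70 above, m0448-3p alone had no count in any of the 9 others, with 34, 21 and 30 in Red beauty, which makes it at least 106-fold higher by a floor of 3 counts over the group. Among the 64 below, 11 had no count in Red beauty. m4057-5p was the one with the largest bound, at least 19.9-fold lower, with 5 to 48 counts in each of the 9 others. A count of 0 over the 3 Red beauty libraries allows up to 0.187 CPM. m0761-5p had 155, 106 and 146 counts in Red beauty and 0 to 13 in the others, at 6.17 ± 0.36 on the log2 scale (edgeR adjusted p = 9.8e-08). m2203-3p had 177, 141 and 164 counts in Red beauty, 47 to 78 in Black kingkong and 0 to 8 in the 2 remaining cultivars, so Black kingkong stood between. m5542-3p, m2936-3p, m5830-5p and m4864-5p were the other named sequences with large differences above, at 7.52, 4.38, 4.15 and 3.70, among those reaching 10 CPM and separated also on TMM-scaled CPM. Larger differences above occurred at lower levels, such as m4079-5p at 7.35.

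Some of the members rest on few libraries of 1 side. m0401-3p had 237, 244 and 235 counts in Red beauty and reached 230 in LK99 replicate 2 but 5 in LK99 replicate 3. m2499-5p behaved alike, with 242, 228 and 244 counts against 179 and 3 in the same libraries, and neither passed against LK99 or Longshu No.7 alone. Below, m0410-3p had 0, 0 and 9 counts in Red beauty and 41 to 235 elsewhere, and its log2 difference of −4.67 became −9.56 without Red beauty replicate 3. m0223-5p, at 13, 10 and 13 counts against 19 to 261, lost its call without any 1 Red beauty library, at adjusted p of 0.0815, 0.0838 and 0.0741. m2431-5p, with 3, 1 and 5 counts against 31 to 132, had a difference of −4.23 ± 0.47 (edgeR adjusted p = 1.8e-05). Other abundant sequences below were m6280-3p at −1.31, m4873-5p at −1.30 and m4290-5p at −0.93.

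At the limit of the rule, m5976-5p had 104, 74 and 85 counts in Red beauty against a lowest other count of 105, and m1478-3p had 74, 67 and 90 against 91. Just outside, m0426-3p had 27, 22 and 14 against a highest other count of 14, and m0700-5p had 1, 0 and 0 against a lowest of 1. The 9 sequences that lay below all others but did not pass the test had adjusted p of 0.053 to 0.17. They include both members of a shared seed, stu-miR6026-3p with a log2 difference of −0.44 (edgeR adjusted p = 0.053) and miR6026-y with −0.93 (edgeR adjusted p = 0.099).

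In 3 of the 24 pairs of close variants that included a member, both variants were members and lay on opposite sides. They are shown with the differing bases in capitals, and substitutions are counted from 1 at the 5′ end of the higher member.
m0761-5p: tttgtatgactcacCcgAgaaa
m1604-5p: ttttgtatgactcacTcgGgaa
m2936-3p: tctcGgaaaatgtagtctgcct
m1478-3p: tctcAgaaaatgtagtctgcct
m4864-5p: tgtgttgaGctGtagcatact
m1561-3p: ttgtgttgaActAtagcatact
The first pair differed by C15T and A18G with an offset of 1 base at the 5′ end, the second by G5A, and the third by G9A and G12A with the same offset. m4864-5p had 39, 58 and 63 counts in Red beauty and 0 to 14 in the others, while m1561-3p had 0, 0 and 1 against 2 to 58. m2936-3p had 76, 43 and 60 counts in Red beauty and 0 to 24 elsewhere, where m1478-3p was the more counted form in every other library. In Red beauty m1478-3p had 74, 67 and 90 counts, so it was the more counted form in replicates 2 and 3 there too. In the first pair m1604-5p was the more counted form in all 9 other libraries, and m0761-5p in the 3 of Red beauty. The second pair rests on a small difference of m1478-3p, whose level of 14.4 CPM in Red beauty differed from Black kingkong by −0.06 on the log2 scale (edgeR adjusted p = 0.91). It did not separate on TMM-scaled CPM, and its call was lost without any 1 Red beauty library, at adjusted p of 0.146, 0.117 and 0.0634.

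**Figure D5:**
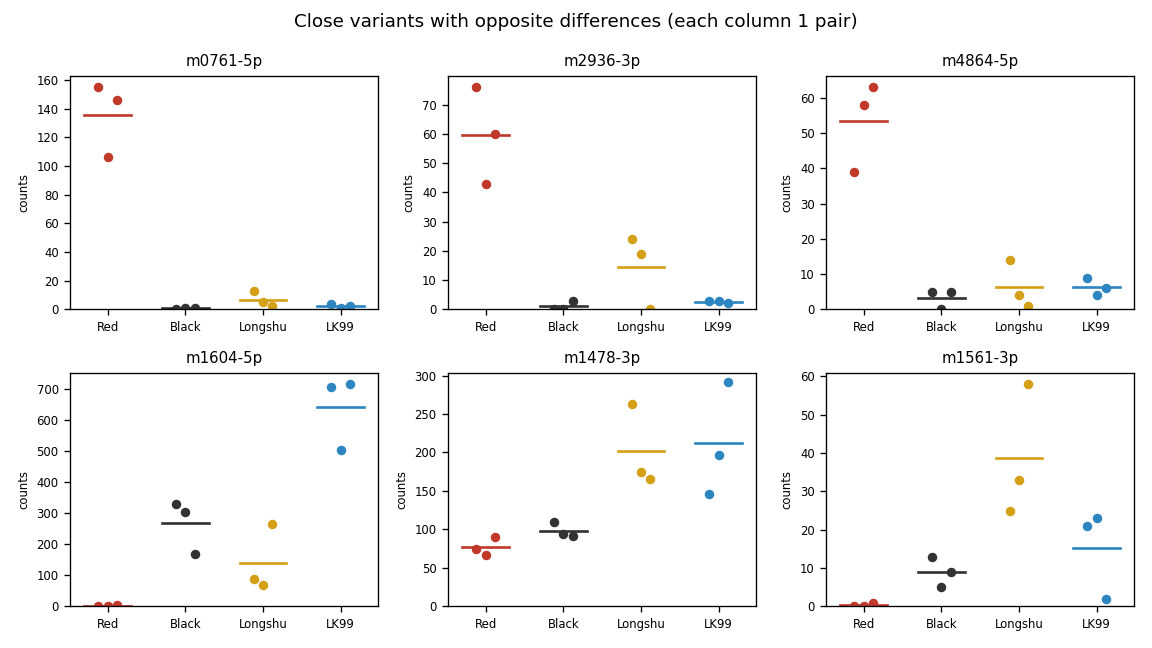
Points are raw counts per library and lines are means of 3 libraries per cultivar for the 3 pairs of close variants, the higher form above and the lower below in each column. m0761-5p reaches 106 to 155 counts in Red beauty, where m1604-5p has 2 to 4.

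Where both arms of a pair were called, they had the same direction. Of 15 arm pairs with a called member, 9 had both arms called in the same direction, 0 in opposite directions and 6 had an other arm that did not pass. Both arms were separated only in the pairs of stu-miR156e with stu-miR156g-3p and of m0050-3p with m5542-3p. Arms were paired by name, and m0916-3p enters both with m0916-5p and with m4245-5p. Over all 61 tested arm pairs, 14 were called in the same direction and 0 in opposite ones. The sequences above were often 22 nt long, 52.9%, as were those below, 51.6%, against 35.5% of all tested. A 5′ T was found in 68.6% of those above and 45.3% of those below, against 51% of all tested. No test was run on these shares.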

How the data were processed

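Small RNA was taken from tubers of 4 cultivars, size-selected on a gel and sequenced, per the labels' protocols. The deposited table gives whole-number counts per mature miRNA entry and library, per the file headers. Which aligner, counter and genome build the authors used is not given in the sources used here. A deposited length column holds another value (other), the length in nt. The deposited TPM columns were read as a score and entered 1 alternative only. Such a value is the count over 1 number per library with zeros set to 0.01, and for Black kingkong replicate 1 that number is 11.9 times its own total.

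The table has 7827 entries, which reduce to 5730 different sequences 18 to 26 nt long. Each sequence was represented by its entry with the largest total, and 94 sequences have entries that differ in counts. Sequences were kept by filterByExpr (minimum count 10, minimum total 15), scaled by TMM and tested by the quasi-likelihood F-test of edgeR 4.0.16, run under R 4.3.3 with limma 3.58.1. A single model held all 12 libraries, with a coefficient for every cultivar. The contrast was Red beauty minus the mean of the 3 other coefficients, an average on the log scale in which a cultivar near 0 weighs heavily. SE is the absolute log2 difference over the square root of F. Benjamini-Hochberg adjustment was made over all 1003 sequences of a contrast. In counts simulated for this contrast over 1003 sequences, 35.6% of 2-fold, 86.2% of 4-fold and 97.6% of 16-fold changes were recovered. The simulation gave the 3 other cultivars the same mean for each sequence, whereas 42.8% of the sequences differed among them. The rates may therefore not hold for the data. Libraries of 1 cultivar differed by more than sampling noise, so none was treated as a second deposit of the same library; repeat preparations of 1 plant would also differ in this way.

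The members and lists were chosen with earlier results of these data known. Named sequences were those separated in raw counts and in TMM-scaled CPM that had the 8 largest differences each way at 10 CPM or more, the 5 most abundant each way, the most abundant called each way per list, fixed representatives of well-known families, and the 2 nearest the limit on each side. Other sequences named were chosen after their values were seen. The potato number range runs from miR7979 upward. Animal-type names were looked for and none was in the table. Intervals and floors cover counting error only. Alternatives were other scalings, DESeq2, other filters, other ways to merge entries, each cultivar singly, a replicate block, limma on the scores, and leaving out libraries.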

Additional observations from a re-analysis of the deposited data

How the results depend on the processing

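The numbers called and, in brackets, called and separated were 342 (134) and stayed within 1.5 times under DESeq2 size factors, DESeq2's own test, library size alone, entries summed or all kept, and separation on scaled counts. The split moved from 70 above and 64 below to 95 above and 59 below with separation on TMM-scaled CPM, and 122 were shared. With separation on CPM by library size alone it was 75 above and 74 below. No filter gave 716 (252) calls over 5730 sequences, and a filter of 10 CPM in 3 libraries gave 110 (33) over 250 sequences, of which 94 and 33 were among the original calls. Requiring the same sign and the threshold against each other cultivar gave 100 (82). limma on the authors' columns gave 225 calls, and its separated calls were 71 above and 20 below. In those columns the divisor of Black kingkong replicate 1 is 11.9 times its own total, which lowers all values of that library. The cause of the loss on the lower side was not tested. Leaving out each library in turn gave 247 to 372 calls, and 124 to 173 called and separated. With Longshu No.7 replicate 3 and LK99 replicate 3 both left out, chosen after seeing the data, 390 were called and 185 also separated, 111 of these below.

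The replicate block gave 327 calls, 128 of them separated. Deviations from the cultivar means correlated at −0.0752 to 0.222 between same-numbered libraries and at −0.191 to 0.0831 between others. That leans towards shared numbers, and 7 of 12 libraries correlated best with one of their own number, a hint from the data and not the design. As 3 of 18 same-numbered pairs, not all, were over 0.1, the numbers were not taken as pairing.

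Of 34 named sequences that passed the test, 16 kept their call under all alternatives run and 0 changed direction; 53 of 707 values fell short of the threshold. stu-miR6149-5p, stu-miR7992-5p, miR159-y and stu-miR172b-5p fell short by limma on the authors' columns alone, at adjusted p of 0.0559, 0.0621, 0.63 and 0.425. miR8001-x, stu-miR482c and m1478-3p also lost their calls without any 1 Red beauty library. miR166-y passed under 4 alternatives, among them the replicate block (adjusted p = 0.0107). Depth limits the scarce members most: many are at or near 0 on the lower side, where the fitted difference is uncertain.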

Other observations

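The scarce counts of sequences above in Red beauty were unevenly placed among the other libraries. Of the 70 sequences above, 16 had at most 5 counts in the 9 other libraries together, a subset chosen after the values were seen. Of their 44 counts in those libraries, 30 (68.2%) were in Longshu No.7 replicate 1, where 14 of the 16 had a count. Longshu No.7 replicates 2 and 3 held 1 and 0 of the 44, and each Black kingkong and LK99 library 0 to 3. The same subset taken for Black kingkong, Longshu No.7 and LK99 held 3, 4 and 3 sequences, with 3, 14 and 5 counts in the libraries of other cultivars. The cause was not tested.

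As examples, m4079-5p had 43, 31 and 46 counts in Red beauty, 1 in Longshu No.7 replicate 1 and 1 in LK99 replicate 2, and m0050-3p had 20, 14 and 17 counts in Red beauty and 1, in Longshu No.7 replicate 1, elsewhere. m0050-3p is listed as the opposite arm of m5542-3p through an entry with the same sequence, and both arms were above all other libraries. Of members with a shared seed, some lay on opposite sides: m5542-3p was above and m1540-3p below, and m2936-3p was above and m3444-5p below.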
